A study of Mus musculus with 24 samples.

Results

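The genes described are 9 tubulin genes and Stmn1, 10 genes of the 55291 in the deposited files, of which 18422 are named protein-coding genes. They were chosen by name and not by a threshold on measured values: the alpha-tubulins Tuba1a, Tuba1b, Tuba1c and Tuba4a, the beta-tubulins Tubb5, Tubb2a, Tubb4b and Tubb6, the gamma-tubulin Tubg1, and the tubulin-binding regulator Stmn1. All 10 were found by the symbol in the transcript names, and the estimated counts of each gene's transcripts were summed. The libraries came from male C57BL/6 mice aged 11 weeks, given either propyzamide, a herbicide that binds plant tubulin and stops its assembly, or an empty vehicle. Each treatment was sampled in naive, unstimulated mice and at 3 h and 24 h after anti-CD3, an antibody against the antigen receptor of T cells, which gave 6 groups of 4 bulk RNA libraries. The series title speaks of antigen-induced T cells in a bowel inflammation model. Doses, tissue, sorting and the order of treatment and stimulation are not stated in the labels. Nor do the labels say whether the 4 libraries of a group came from separate animals, so the p-values measure only the spread between these libraries, which may be technical.

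Microtubules are hollow polymers of alpha- and beta-tubulin dimers, which cells use as tracks for transport and, when they divide, as the fibres of the mitotic spindle. Gamma-tubulin seeds new microtubules, and stathmin, the product of Stmn1, holds dimers in solution and favours shortening of the polymer. Animal cells adjust their tubulin mRNA to the pool of free dimers: drugs that release dimers from microtubules lead to degradation of alpha- and beta-tubulin mRNA during translation, after the factor Ttc5 recognises the start of the new chain. T cells reorient their microtubules towards the contact with an antigen-presenting cell and, when they divide, need tubulin for the spindle.

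The start of the coding sequence is shown for the members because it encodes the stretch that this feedback reads, with the first 4 codons in capitals. The sequences are 30 bases, 5′ to 3′ on the coding strand, from the GENCODE M21 transcripts of GRCm38, a transcript set of the same genome build as the files.
Tubb5: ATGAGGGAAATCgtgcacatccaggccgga
Tubb2a: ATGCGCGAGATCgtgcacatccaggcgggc
Tubb4b: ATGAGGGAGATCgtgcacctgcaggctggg
Tuba1a: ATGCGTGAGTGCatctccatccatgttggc
Tuba1b: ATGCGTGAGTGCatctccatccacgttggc
Tuba1c: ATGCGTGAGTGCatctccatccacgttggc
Tuba4a: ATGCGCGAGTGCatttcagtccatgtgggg
Tubg1: ATGCCGAGAGAAatcatcaccctacagttg
Stmn1: ATGGCATCTTCTgatattcaggtgaaagag
The 3 beta-tubulins shown share ATC as the fourth codon and the 4 alpha-tubulins share TGC. Tubg1 and Stmn1, which are not known for this feedback, start with other codons. The starts of Tuba1b and Tuba1c were identical in all 30 bases, and that of Tuba1a matched Tuba1b in 29 of 30.

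The end of the coding sequence encodes the acidic tail by which tubulin isotypes are told apart and which carries most of their chemical modifications. The last 45 coding bases before the stop codon are given for 3 beta-tubulins and 1 alpha-tubulin, without capitals, to show how the isotypes differ there.
Tubb5: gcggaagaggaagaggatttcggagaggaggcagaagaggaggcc
Tubb4b: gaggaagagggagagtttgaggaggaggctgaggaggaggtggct
Tubb2a: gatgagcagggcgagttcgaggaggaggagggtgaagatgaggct
Tuba1c: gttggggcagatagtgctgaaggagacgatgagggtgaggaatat
Glutamate codons, GAA or GAG, made up 9 of the 15 codons in Tubb5, 10 in Tubb4b, 8 in Tubb2a and 4 in Tuba1c. Compared position by position, Tubb5 matched Tubb4b in 29 of the 45 bases of this tail, Tubb2a in 27 and Tuba1c in 21. No gaps were allowed, so inserted codons lower these counts.

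How far reads could tell the genes apart differed between members. Over the whole coding sequence Tuba1a and Tuba1b were 98.3% identical, Tuba1b and Tuba1c 97.9% and Tuba1a and Tuba1c 97.1%, while Tubb5 was 84.6% identical to Tubb2a and 82.2% to Tubb4b. Of the 31-base words in the main transcript, 95.6% occurred in no other gene for Tubb5, 35.4% for Tubb4b and 43.6% for Tubb2a. For Tuba1a, Tuba1b and Tuba1c the shares were 22.96%, 24.64% and 36.07%, and within the coding part only 4.4%, 2.8% and 5.5%. The split of counts between these 3 alpha-tubulins is therefore uncertain, and their sum was tested as well. Within the coding part the shares were also low for Tubb4b (22.6%), Tubb2a (31.9%) and Stmn1 (4.3%, against 57.4% of its whole transcript). Few or none of the words of these 3 were shared with another member. Their counts are therefore uncertain against genes outside the set, which was not tested. Tuba1a, Tuba1b and Tuba1c lie together on GRCm38 chromosome 15. Tuba1b is at 98931425 to 98934565 and Tuba1a at 98949837 to 98953703 on the minus strand, and Tuba1c at 99029891 to 99038110 on the plus strand. Tubb5 lies on chromosome 17 at 35833921 to 35838306, Tubb4b on chromosome 2 at 25222160 to 25224702, Tubb2a on chromosome 13 at 34074274 to 34078007 and Tuba4a on chromosome 1 at 75214228 to 75219865, all on the minus strand. Tubg1 on chromosome 11 at 101119938 to 101126419 and Stmn1 on chromosome 4 at 134468320 to 134473843 are on the plus strand.

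Most libraries were shallow. In 23 of the libraries the estimated counts summed to 438750 to 2072033, of which named protein-coding genes held only 17961 to 160796. The propyzamide 24 h library with replicate number 3 stood apart with 9812458 counts, 2939058 of them in named protein-coding genes, and the propyzamide 3 h library with replicate number 3 was the shallowest. A single gene model, Gm10800, held 41.9% to 50.3% of all counts in the 23 libraries and 20.8% in the deepest. All 11 T cell marker genes were detected, at low counts: Cd3e, which belongs to the antigen receptor complex, had 52 counts in the 23 libraries and was at 0 in 7. Both unstimulated groups and the vehicle 3 h group carried one i5 index, and the other 3 groups carried a second one; the labels do not call this a batch. The treatment comparison at 3 h, both vehicle comparisons of 24 h and both propyzamide comparisons with unstimulated mice therefore differ in index as well, and index and group cannot be told apart there. The same holds for the mean of the 3 stages, which contains the treatment comparison at 3 h, and for the interactions of treatment with the step from unstimulated to 3 h and with that from 3 h to 24 h, in which 1 of the 2 steps crosses the indexes.

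Tubb5 and Tuba1b, widely expressed beta- and alpha-tubulins, carried most of the tubulin signal. Over the 24 libraries Tuba1b had 4258 estimated counts and Tubb5 had 4154, with a median per library of 35.2 and 35.7 in the 23 libraries outside the deepest. The deepest library alone held 77.2% and 75.0% of those totals. Tubb4b, a broadly expressed beta-tubulin, followed with 2138 counts, then Tuba1c with 1180 and Tuba1a with 1134. Tubb2a had 610.8 counts, Tuba4a 478.9, Stmn1 451.1, Tubg1 419.9 and Tubb6 277.3. Outside the deepest library the order differed. There Tubb5 had 1037.9 counts, Tuba1b 970.2, Tubb4b 352.8, Tuba1c 258.3 and Tubg1 214.0. Tuba1a followed with 163.4, Stmn1 with 132.1, Tubb2a with 109.0, Tuba4a with 86.0 and Tubb6 with 53.5. Tubb5 and Tubg1 were detected in all 24 libraries, Tuba1b in all but 1, and Tubb6 and Tuba1c were at 0 in 5.

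Per transcript length, in TPM (transcripts per 1000000), Tuba1b made up 61.8% ± 14.2 (SD, n = 23 libraries with any alpha-tubulin count) of all alpha-tubulin TPM. Tuba1c held 15.4% ± 9.96, Tuba4a 10.6% ± 7.77 and Tuba1a 9.15% ± 6.84 of it. Among beta-tubulins Tubb5 held 50.7% ± 15.5 (SD, n = 24), Tubb4b 31.2% ± 16.5, Tubb2a 7.76% ± 5.73 and Tubb6 6.28% ± 5.77. Tubb5's share of beta-tubulin TPM was 43.8% ± 3.72 in the vehicle 3 h group and 61.2% ± 12.3 in the vehicle 24 h group. The shares with propyzamide were 41.1% ± 9.72 at 3 h and 66.9% ± 18.4 at 24 h, where single libraries ranged from 40.1% to 82.1%. Tubb4b's share moved the other way between the same groups, from 44.7% ± 8.87 to 16.3% ± 11.9 with vehicle and from 30.3% ± 20.6 to 21.02% ± 16.78 with propyzamide. Shares of a family are tied to each other, so a rise in Tubb5's share lowers the rest. Tubb4b's own median TPM went from 3.33 at 3 h to 2.91 at 24 h with vehicle and from 4.10 to 7.16 with propyzamide. The propyzamide 3 h shares include the shallowest library, which had 1.5 counts of Tubb5 and 0 of Tubb4b. The shares were not tested.

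**Figure D1:**
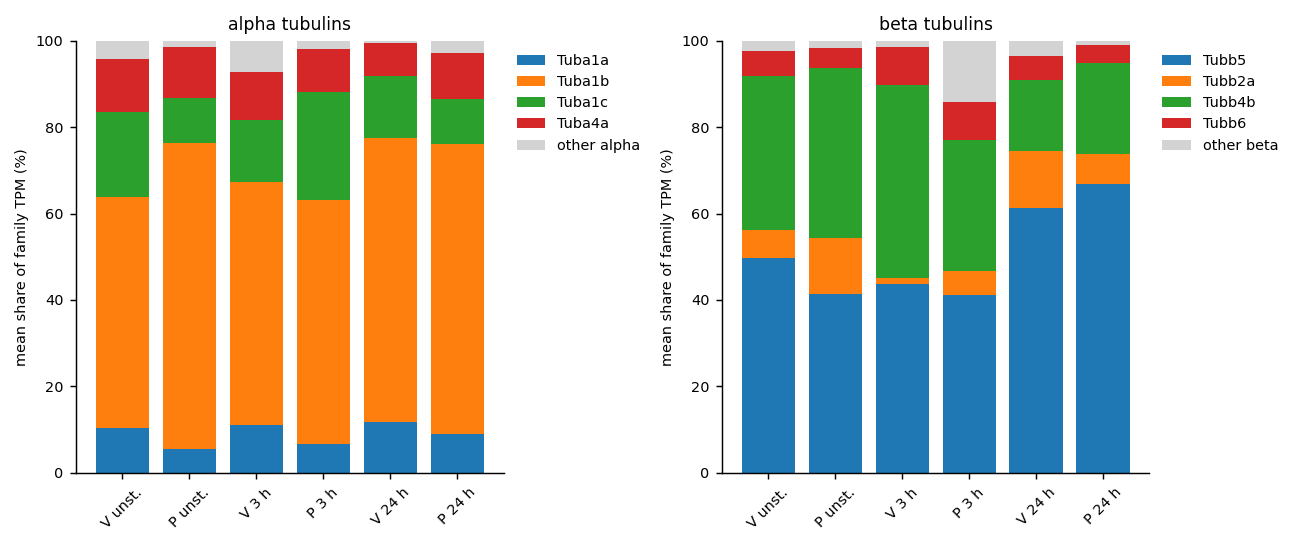
Mean share of each isotype in the summed TPM of its family (y axis, percent) in the 6 groups (x axis; V, vehicle; P, propyzamide), alpha-tubulins left and beta-tubulins right; each bar is the mean of 4 libraries, except 3 for alpha-tubulins in the propyzamide 3 h group. Tuba1b is the largest alpha share in every group, and Tubb5's beta share is 61.2% and 66.9% in the 24 h groups against 41.1% to 49.6% in the others.

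The 11 tubulin genes outside the set were barely detected. Tube1 and Tubal3 led them with 123.3 and 108.2 counts over 24 libraries, the neuronal isotype Tubb3 had 42.1, 4 of them outside the deepest library, and none of the 11 passed the filter on low counts. The 3 other stathmin genes also failed it, and Stmn2 had the most with 76.8 counts. The low level of neuronal isotypes went with low levels of neuron and glia markers, whose 9 genes summed to 0.82 to 1.89 counts per 10000 named protein-coding counts in the group means.

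Tubg1's counts were mostly not from its coding transcript. In the 23 libraries 86.6% of them were assigned to a non-coding transcript, Tubg1-202, and 13.4% to the coding Tubg1-201, which had 28.7 counts in all. In the deepest library the coding transcript held 56.0%. Values for Tubg1 below are therefore for the gene as annotated and say little about the mRNA for gamma-tubulin. By contrast 99.4% of Tubb5's and 99.5% of Tuba1b's counts in the 23 libraries lay on the main coding transcript, and 83.0% of Stmn1's.

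The levels that follow are CPM (counts per 1000000) scaled by the trimmed mean of M values, or TMM CPM, a scale that allows for libraries of different make-up. Tubb5 was at 13.7, 56.5, 25.6 and 42.5 TMM CPM in the 4 unstimulated vehicle libraries and at 25.7, 32.1, 35.8 and 63.7 in the unstimulated propyzamide libraries. At 3 h the vehicle libraries were at 29.4, 21.6, 16.6 and 16.8 and the propyzamide libraries at 19.4, 17.8, 3.03 and 16.8. At 24 h the values were 39.7, 80.8, 69.2 and 46.4 with vehicle and 63.7, 99.2, 97.4 and 120.3 with propyzamide. Within each stage the vehicle and propyzamide libraries overlapped, whereas the 24 h libraries lay above the 3 h libraries of the same treatment without overlap. Ordered by mean, the groups ran from propyzamide 3 h (14.3 ± 7.56) and vehicle 3 h (21.1 ± 6.02) through unstimulated vehicle (34.6 ± 18.8) and unstimulated propyzamide (39.3 ± 16.8) to vehicle 24 h (59.0 ± 19.2) and propyzamide 24 h (95.1 ± 23.4; SD, n = 4 each). Every pair of neighbours in that order overlapped.

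Tuba1b showed nearly the same order. The unstimulated libraries were at 20.7, 44.5, 18.04 and 28.6 TMM CPM with vehicle and at 34.2, 31.8, 71.3 and 59.3 with propyzamide. At 3 h they were at 43.4, 18.7, 10 and 24.1 with vehicle and at 34.5, 22.1, 0 and 22.7 with propyzamide. The library at 0 was the shallowest. In it 3 counts correspond to 6.84 CPM before scaling, so a 0 there does not exclude a level up to that value. At 24 h the values were 33.9, 60.5, 43.6 and 32.8 with vehicle and 42.3, 79.1, 102.8 and 100.4 with propyzamide. The propyzamide 24 h libraries all lay above the propyzamide 3 h libraries, and 3 of them above every other library of the study.

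**Figure D2:**
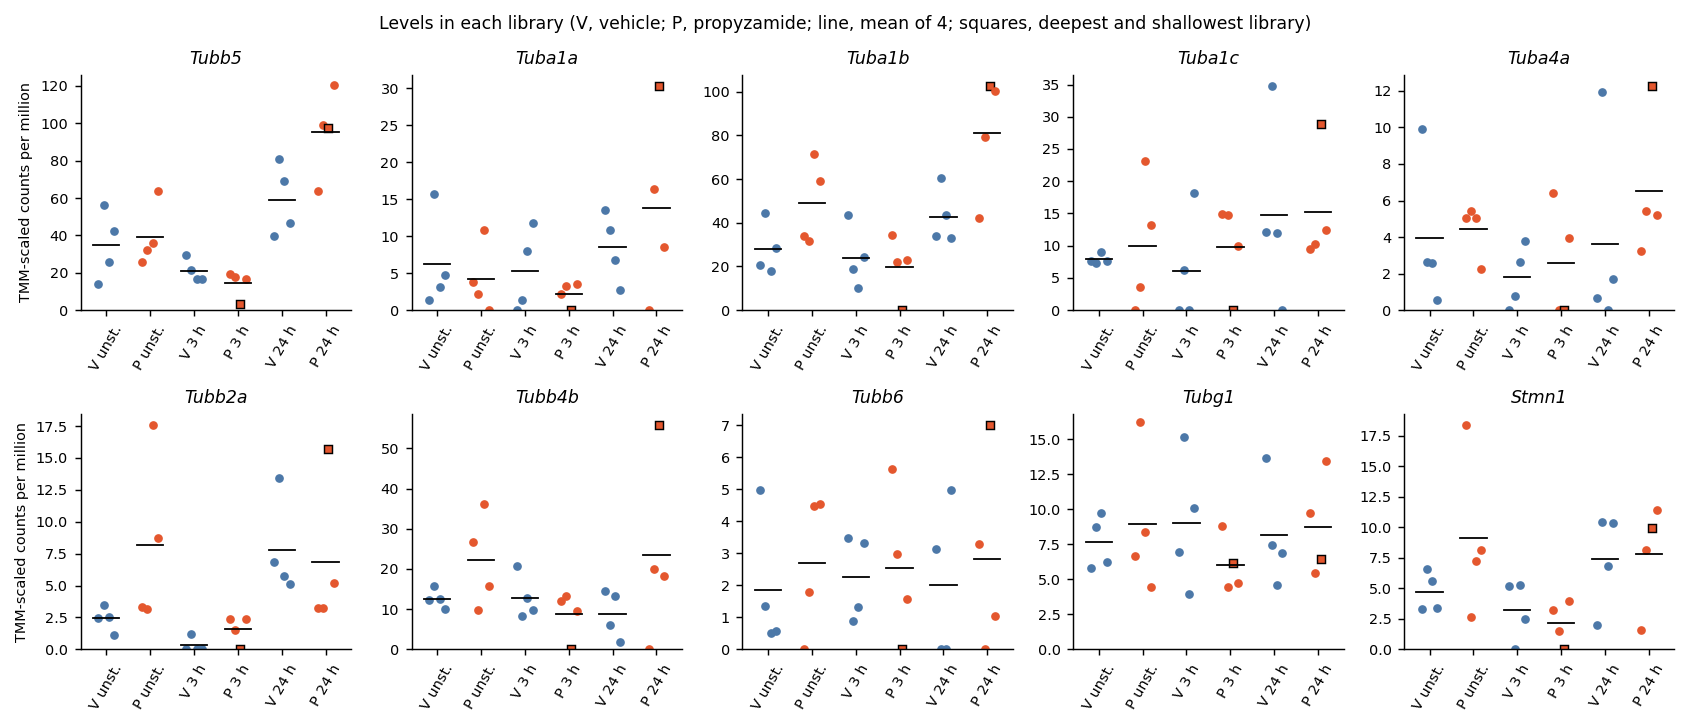
TMM CPM (y axis, from 0) of each of the 10 genes in each library by group (x axis; V, vehicle, blue; P, propyzamide, red); lines are the means of 4 libraries, and squares mark the deepest library (propyzamide 24 h) and the shallowest (propyzamide 3 h). Tubb5 and Tuba1b are highest in the propyzamide 24 h group, with means of 95.1 and 81.1, while Tubb4b and Tuba1a are highest in the deepest library.

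Whether propyzamide changed tubulin mRNA was tested at each stage with edgeR's quasi-likelihood test over all 24 libraries, with Benjamini-Hochberg adjustment over the 3799 genes that passed the filter. Of the 10 members 7 passed it; Tuba4a, Tubb2a and Tubb6 did not. No member passed an adjusted p of 0.05 in the unstimulated mice, at 3 h, at 24 h or in the mean of the 3 stages. The background was the same: 0% of the 3799 tested genes were called at each of the 3 stages, and 0% in the mean of the stages. At an unadjusted p under 0.05 stood 0 of the 7 members in the unstimulated mice, 0 at 3 h, 1 at 24 h and 0 in the mean, beside 127, 115, 388 and 326 of all tested genes. DESeq2 and limma-trend also called 0 members in these 4 comparisons.

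Among beta-tubulins, Tubb4b had the largest treatment difference at 24 h. Its vehicle libraries were at 14.5, 5.98, 13.2 and 1.89 TMM CPM and its propyzamide libraries at 0, 19.9, 55.8 and 18.4, so the groups overlapped and the highest value came from the deepest library. The log2 fold change was 1.41 ± 0.67 (SE; edgeR adjusted p = 0.485), and 0.58 without the deepest library. Tubb4b's log2 fold change was 0.82 ± 0.65 in the unstimulated mice, -0.46 ± 0.72 at 3 h and 0.59 ± 0.39 in the mean of the stages, with adjusted p-values of 1, 1 and 0.650. Tubb5 differed by 0.17 ± 0.42 (adjusted p = 1) without stimulation, -0.51 ± 0.47 (adjusted p = 1) at 3 h and 0.69 ± 0.42 (adjusted p = 0.538) at 24 h. Its mean over the stages was 0.12 ± 0.25 (adjusted p = 0.878), a ratio of 1.08 with a 95% interval from 0.77 to 1.53.

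Among alpha-tubulins, Tuba1b was 0.81 ± 0.49 (adjusted p = 1) higher on the log2 scale with propyzamide in the unstimulated mice, a difference that did not pass the test. At 3 h it was -0.18 ± 0.53 (adjusted p = 1), at 24 h 0.95 ± 0.49 (adjusted p = 0.504) and in the mean of the stages 0.53 ± 0.29 (adjusted p = 0.644). The mean corresponds to a ratio of 1.44 with a 95% interval from 0.97 to 2.14. Tuba1a gave -0.50 ± 0.86, -1.11 ± 1.06 and 0.76 ± 0.80 at the 3 stages and -0.28 ± 0.52 in their mean, with adjusted p-values from 0.721 to 1. Tuba1c gave 0.47 ± 0.82, 0.77 ± 0.91 and 0.16 ± 0.80 and a mean of 0.47 ± 0.49, with adjusted p-values from 0.739 to 1. The sum of these 3 genes, which does not depend on how reads were split among them, differed by 0.59 ± 0.52, -0.08 ± 0.55 and 0.76 ± 0.52 at the 3 stages, with adjusted p-values of 1, 0.999 and 0.584.

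Tubg1 and Stmn1 did not pass the test either. Tubg1 differed by 0.24 ± 0.49, -0.61 ± 0.53 and 0.00 ± 0.44 on the log2 scale at the 3 stages and by -0.12 ± 0.29 in their mean, with adjusted p-values from 0.889 to 1. Stmn1 differed by 0.83 ± 0.71, -0.22 ± 0.92 and 0.21 ± 0.72 and by 0.28 ± 0.45 in the mean, with adjusted p-values from 0.844 to 1. Over the 7 tested members the median difference was 0.47 in the unstimulated mice, -0.46 at 3 h and 0.69 at 24 h, against 0.00, -0.06 and 0.09 for all tested genes. For the named protein-coding genes tested the medians were 0.16, -0.07 and 0.32. The sum of the 8 alpha- and beta-tubulin members was 97.5 ± 34.8 TMM CPM with vehicle and 140.1 ± 55.2 with propyzamide in unstimulated mice. It was 73.74 ± 22.01 and 61.5 ± 40.7 at 3 h, and 147.2 ± 52.4 and 245.0 ± 93.5 at 24 h (SD, n = 4 each), with overlapping libraries at every stage.

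**Figure D3:**
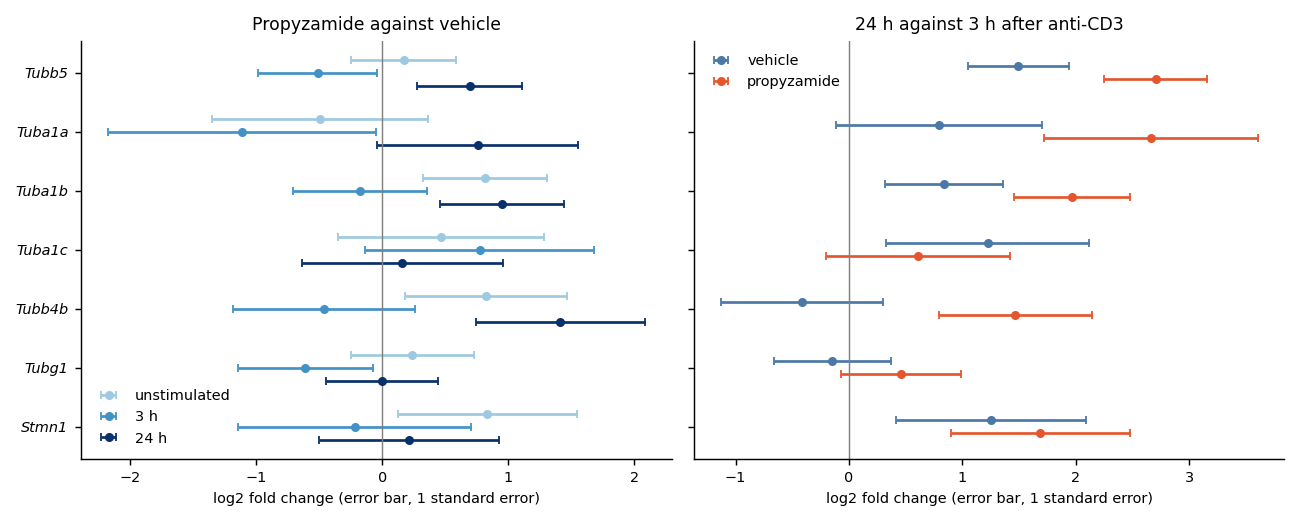
Log2 fold changes (x axis; points) with 1 standard error (bars) of the 7 members that passed the filter, for propyzamide against vehicle at the 3 stages (left) and for 24 h against 3 h after anti-CD3 in each treatment (right). No treatment difference passed the test; Tubb5 (2.70) and Tuba1b (1.96) passed it for 24 h against 3 h with propyzamide.

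Between 3 h and 24 h after anti-CD3, Tubb5 and Tuba1b rose in the mice given propyzamide, a comparison within 1 i5 index. Tubb5 went from a mean of 14.3 to 95.1 TMM CPM, a log2 fold change of 2.70 ± 0.46 (edgeR adjusted p = 0.00174), or 6.51 times with a 95% interval from 3.50 to 12.1. Tuba1b went from 19.8 ± 14.4 to 81.1 ± 28.0, a log2 fold change of 1.96 ± 0.51 (adjusted p = 0.0187), or 3.90 times with an interval from 1.95 to 7.84. All 4 of the 24 h libraries were higher than all 4 of the 3 h libraries for both genes. The 2 called members of 7 stand against a background of 15.3% of all tested genes called, 8.63% called as higher at 24 h, and 12.4% of the 2465 named protein-coding genes tested called as higher. Called as lower at 24 h were 254 of all tested genes, of which 42 were named protein-coding genes.

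The other members of the same comparison did not pass. Tuba1a was 2.66 ± 0.94 higher on the log2 scale (adjusted p = 0.0530), Stmn1 1.69 ± 0.79 (adjusted p = 0.128) and Tubb4b 1.46 ± 0.67 (adjusted p = 0.123). These 3 each had an unadjusted p under 0.05, as did the 2 called members, which makes 5 of 7 beside 1295 of all 3799 tested genes. Stmn1 was at 3.20, 1.48, 0 and 3.93 TMM CPM at 3 h and at 1.62, 8.13, 9.97 and 11.4 at 24 h, so the groups overlapped. Tuba1c and Tubg1 had values of 0.61 ± 0.81 and 0.46 ± 0.53, with adjusted p-values of 0.619 and 0.557. The summed Tuba1a, Tuba1b and Tuba1c rose by 1.74 ± 0.54 (adjusted p = 0.0333). The median over the 7 members was 1.69, against 0.15 over all tested genes and 0.73 over named protein-coding genes.

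The call for Tubb5 held without the deepest and the shallowest library, where the log2 fold change was 2.45 (adjusted p = 0.00791) and 61 of 3830 genes were called in place of 582 of 3799. Tuba1b was then at 1.53 (adjusted p = 0.0612) and no longer passed. With relative log expression scaling the median of all tested genes in this comparison moved from 0.15 to 0.48 and the share of calls that were higher at 24 h from 56.4% to 77.8%. Relative to those medians Tubb5 was 2.55 higher with TMM and 2.56 with the other scaling, and Tuba1b 1.81 and 1.86. The excess over the median differed more in other settings. For Tubb5 and Tuba1b it was 2.08 and 1.33 with named protein-coding genes alone and 2.145 and 1.422 without a filter. It was 2.92 and 2.22 with only the groups compared.

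With vehicle the same step was smaller in value and no member passed. Tubb5 was 1.49 ± 0.45 higher at 24 h than at 3 h on the log2 scale (edgeR unadjusted p = 0.00221, adjusted p = 0.152), with no overlap between the 4 libraries at 39.7 to 80.8 and the 4 at 16.6 to 29.4 TMM CPM. It passed in DESeq2 (1.67, adjusted p = 0.0234) and in a fit of only these 2 groups (1.70, adjusted p = 0.0360). The background here was 0% of 3799 genes called, with 462 genes and 1 member at an unadjusted p under 0.05. Tuba1b was at 0.84 ± 0.52 (adjusted p = 0.514).

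The difference between treatments in this step was itself tested. For Tubb5 it was 1.21 ± 0.63 on the log2 scale (unadjusted p = 0.0633, adjusted p = 0.826), the smallest p among the members, and 0% of the tested genes were called. Nor did the interaction of treatment with the change from unstimulated to 3 h call any member, where the smallest p was Tuba1b's (-0.99 ± 0.72, adjusted p = 0.997), or that to 24 h, where it was Tuba1a's (1.25 ± 1.17, adjusted p = 1). The background was 0% of the tested genes in the first and 0% in the second, no member had an unadjusted p under 0.05 in any of the 3 interactions, and DESeq2 called 0 members too. These data therefore do not show that the rise with propyzamide differed from the step with vehicle, and the vehicle step crosses the i5 indexes while the propyzamide step does not.

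Against the unstimulated mice no member passed at either time. With vehicle at 3 h the smallest p was Tubb5's, at -0.74 ± 0.44 (adjusted p = 0.990), beside 0.29% of tested genes called. With vehicle at 24 h it was again Tubb5's, at 0.75 ± 0.42 (adjusted p = 0.741), beside 0.421% called. With propyzamide at 3 h 0.711% of genes were called, and 3 members had an unadjusted p under 0.05 beside 510 of all 3799 tested genes: Tubb5 -1.43 ± 0.45 (adjusted p = 0.152), Stmn1 -1.76 ± 0.81 (adjusted p = 0.351) and Tuba1b -1.23 ± 0.51 (adjusted p = 0.303). With propyzamide at 24 h 0.079% were called, and 2 members had an unadjusted p under 0.05 beside 549 of all tested genes: Tubb5 at 1.28 ± 0.42 (adjusted p = 0.215) and Tuba1a at 1.71 ± 0.83 (adjusted p = 0.344). DESeq2 called Tubb5 in both propyzamide comparisons, at -1.58 (adjusted p = 0.0415) and 1.48 (adjusted p = 0.0382), and no other member.

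The step from 3 h to 24 h in Tubb5 and Tuba1b came with higher sums of T and B cell markers, given here as summed counts per 10000 counts in named protein-coding genes. The 11 T cell markers summed to 4.58 ± 1.66 with vehicle and 4.21 ± 1.28 with propyzamide at 3 h, and to 9.31 ± 1.10 and 11.8 ± 3.69 at 24 h (SD, n = 4 each). The 9 B cell markers went from 20.8 ± 2.08 to 47.0 ± 16.0 with vehicle and from 17.2 ± 9.86 to 59.0 ± 19.9 with propyzamide. The 7 markers of plasma cells, which descend from B cells, did not follow: they went from 58.3 ± 16.9 to 33.5 ± 2.11 with vehicle and from 69.8 ± 52.3 to 68.55 ± 38.39 with propyzamide, and 0 of the 5 tested were called in either step, with 2 and 1 at an unadjusted p under 0.05. On the same scale Tubb5 went from 3.54 ± 1.01 to 8.57 ± 2.37 and from 2.42 ± 1.07 to 11.96 ± 2.55. In bulk samples a change in the share of cells of a type and a change in RNA per cell cannot be told apart, and the part of the markers in the tubulin result was not tested.

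Of the 5 tested T cell markers 2 rose in the propyzamide step, Lck, the kinase of the T cell receptor, by 3.32 ± 0.55 on the log2 scale (edgeR adjusted p = 0.00146) and Trbc2, a receptor constant chain, by 3.17 ± 0.98 (adjusted p = 0.0323). Of the 9 B cell markers 5 rose, among them Ighd, Ighm, Cd79b and Cd79a, parts of the B cell receptor, by 2.31 to 2.89. Fcer2a, a receptor for IgE on the same list, was at -0.25 ± 0.66 (adjusted p = 0.809). Of all tested genes 8.63% were called as higher in this step. The 16 epithelial markers summed to 49.8 ± 4.08 with vehicle and 76.4 ± 42.1 with propyzamide in unstimulated mice. With vehicle they went from 40.5 ± 17.4 at 3 h to 4.97 ± 1.91 at 24 h. With propyzamide they went from 31.8 ± 17.0 to 30.2 ± 40.0. The propyzamide 24 h libraries ranged from 4.65 to 89.8, and the highest value was that of the deepest library. Their median was 13.22, against 32.05 in the propyzamide 3 h group. Of the 13 tested epithelial genes 0 were called by edgeR in either step, with 9 at an unadjusted p under 0.05 with vehicle and 0 with propyzamide. None of the 13 tested epithelial genes was called in the treatment comparison at 24 h by edgeR. An unadjusted p under 0.05 was reached by 12, beside 388 of all tested genes. The part of the deepest library in this was not tested. In the mean of the 3 stages none was called either. There 11 of the 13 epithelial and 3 of the 5 tested plasma cell genes had an unadjusted p under 0.05, beside 326 of all tested genes. Apoa1 (2.86 ± 0.74, edgeR adjusted p = 0.336) and Elf3 (1.30 ± 0.39, adjusted p = 0.454) had the smallest epithelial p-values. Those of plasma cells were Jchain (0.93 ± 0.31, adjusted p = 0.461) and Igkc (0.70 ± 0.28, adjusted p = 0.494).

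**Figure D4:**
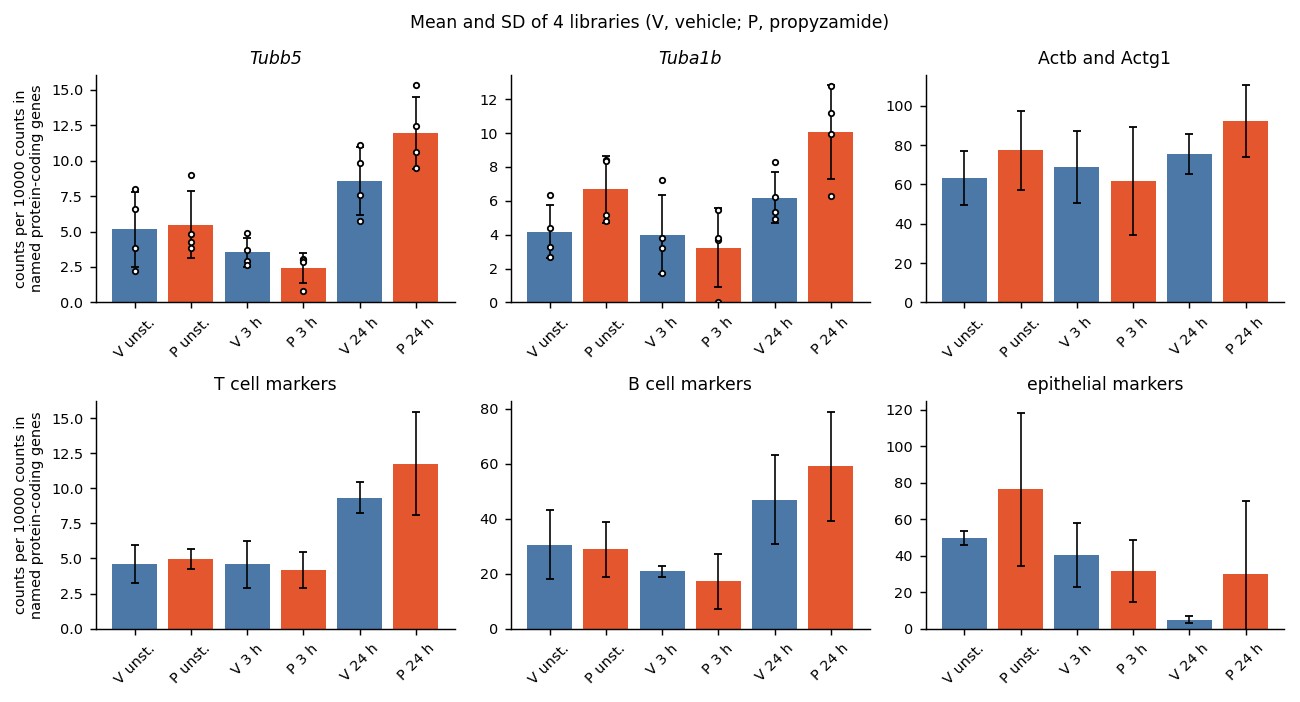
Counts per 10000 counts in named protein-coding genes (y axis, from 0) for Tubb5, Tuba1b, Actb with Actg1, and the summed T cell, B cell and epithelial markers in the 6 groups (x axis; V, vehicle, blue; P, propyzamide, red); bars are means and error bars the SD of 4 libraries, cut at 0 for epithelial markers, and circles are the libraries for the 2 tubulins. Tubb5 and the T and B cell markers are highest in the 24 h groups, and the epithelial markers are lowest in the vehicle 24 h group at 4.97.

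Other genes of the microtubule pathway were described from lists of known function. Of the 22 genes of tubulin folding, which include prefoldin, the CCT chaperonin and the tubulin cofactors, 9 were tested. None was called in any of the 4 treatment comparisons. In the mean of the stages the median was 0.32, and the smallest p-values belonged to the prefoldin subunit Pfdn5 (0.77 ± 0.33, edgeR adjusted p = 0.541) and the chaperonin subunit Cct4 (0.86 ± 0.38, adjusted p = 0.548). In the propyzamide step from 3 h to 24 h 0 of the 9 were called and 4 had an unadjusted p under 0.05, beside 1295 of all 3799 tested genes, with a median of 0.93. Of 28 microtubule-associated proteins 6 were tested, and the plus-end stabilisers Clasp2 (-0.53 ± 0.24, adjusted p = 0.560) and Clasp1 (-0.38 ± 0.26, adjusted p = 0.654) had the smallest p-values in the mean treatment comparison. Tpt1, an abundant tubulin-binding protein, was the 1 member of that list called in the propyzamide step, at 1.49 ± 0.39 (adjusted p = 0.0183). This 1 of 6 stands beside 15.3% of all tested genes called and 12.4% of named protein-coding genes called as higher.

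Of the 27 genes of the spindle and of proliferation 26 were found and 10 tested. Mcm3 and Mcm6, subunits of the replicative helicase, rose in the propyzamide step by 2.93 ± 0.68 (edgeR adjusted p = 0.0112) and 1.78 ± 0.56 (adjusted p = 0.0341), and the median of the 10 was 1.49. These 2 of 10 stand beside 15.3% of all tested genes called and 12.4% of named protein-coding genes called as higher. In the mean treatment comparison none was called, and the smallest p-values were those of the replication clamp Pcna (0.92 ± 0.36, adjusted p = 0.494) and Mcm2 (0.64 ± 0.34, adjusted p = 0.629). Of 13 motor subunits 6 were tested and none was called in either comparison, with the light chain Dynll1 (0.78 ± 0.38, adjusted p = 0.571) and the kinesin Kif5b (-0.36 ± 0.38, adjusted p = 0.740) named by p in the mean treatment comparison. Of 14 modifying enzymes only the deacetylase Sirt2 was tested (-0.04 ± 0.41, adjusted p = 0.978), and none of the 11 nucleation genes was.

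Actin genes gave a comparison from another cytoskeleton. Actb and Actg1 together were at 414.4 ± 127.1 TMM CPM with vehicle and 364.6 ± 192.5 with propyzamide at 3 h, and at 517.8 ± 94.4 and 740.5 ± 199.97 at 24 h (SD, n = 4 each). Of the 14 actin genes 13 were tested, and their median was 1.12 in the propyzamide step, with 0 called by edgeR and 9 at an unadjusted p under 0.05. At that threshold stood 1295 of all 3799 tested genes and 826 of the 2465 named protein-coding genes. In the mean treatment comparison Pfn1 (0.56 ± 0.28, adjusted p = 0.580) and Cfl1 (0.46 ± 0.25, adjusted p = 0.628), which bind actin monomers and filaments, had the smallest p-values.

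Likeness to Tuba1b across the 24 libraries was ranked for genes outside the lists, which leaves out the cytoskeletal genes the lists hold. By Pearson's r of log2 TMM CPM the 5 most alike were Eef1a1 (0.968), Ppia (0.962), Rps3 (0.959), Ywhaz (0.958) and Rpl9 (0.954), all abundant transcripts, and without the deepest library r was 0.955 to 0.968. Tubb5 correlated with Tuba1b at 0.897, Stmn1 at 0.668, Tubb4b at 0.593, Tuba1c at 0.526, Tuba1a at 0.446 and Tubg1 at 0.136, while the median over named protein-coding genes was 0.393. The points share library depth and the share of counts in known genes, so these values are a description.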

How the data were processed

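Libraries were made with the SMART-seq2 protocol, per the labels' protocols, and quantified with kallisto on GRCm38, per the submitters' processing notes; no versions are stated. The deposited files hold, per the file headers, estimated counts (expected counts) for 142604 transcripts, not scaled to depth. Each file also holds the authors' TPM, per the file headers. A further deposited column, of another kind, is the effective transcript length in bases, per the file headers. Estimated counts were summed by gene symbol and rounded. Genes were filtered with edgeR's filterByExpr, scaled with TMM and tested in 1 quasi-likelihood fit of 6 group means (edgeR 4.0.16, limma 3.58.1, DESeq2 1.42.0, R 4.3.3), with calls at an adjusted p of 0.05. The fit was also run on simulated counts with the same dispersion for every gene. Those counts lacked the differences in library make-up seen here, so they do not show how the fit performs on these libraries. Intervals are from standard errors; floors of 3 counts cover counting error only. TPM entered limma as log2(TPM + 1). The members and lists were chosen with earlier results of these data known. Members were all described. Tested genes of the microtubule and actin lists were named if called or among the 2 smallest p-values in the mean treatment comparison. That rule was not kept for the cell type lists. Of these, fold changes were given for T and B cell markers called in the propyzamide step and for Fcer2a. Epithelial and plasma cell genes were named by p in the mean treatment comparison. Macrophage and stroma markers were not described. The 5 genes most correlated with Tuba1b outside the lists were also named. Replicate numbers follow record order, so nothing was paired. Sequences come from GENCODE M21; coding starts and ends are those of the transcripts numbered 201, except 202 for Tuba4a, and 1 member is not shown. Some coding ends and 1 marker gene are not reported here. The interaction of treatment with the step from 3 h to 24 h, and the fit without the deepest and the shallowest library, were added after the data were seen.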

Additional observations from a re-analysis of the deposited data

Results flagged for a closer look

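Of 42 groups of 4 libraries tested for a value far from the rest (7 members in 6 groups), 6 had one; chance alone gives about 1 in 20. Of these, 5 were the same library, propyzamide 3 h with replicate number 3, the shallowest of the study: Tubb5 was at 3.03 TMM CPM there, and Tuba1a, Tuba1b, Tuba1c and Tubb4b at 0. Its 3 companions had 16.8 to 19.4 TMM CPM of Tubb5. The wide range in the propyzamide 3 h group was not limited to tubulins: Actb with Actg1 ran from 76.2 to 470.4 TMM CPM, with a median of 455.9. The part of depth and of library make-up in these values was not tested. In the unstimulated vehicle group Tuba1c in the library with replicate number 3 was at 9.01 TMM CPM, above 3 closely spaced values of 7.32 to 7.63.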

How the results depend on the processing

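The alternatives gave 1423 values for 44 log2 fold changes; 38 of them turned the sign, in 13 results, all of them treatment differences that had not passed the test. The number of members called was 0 in all 4 treatment comparisons and all 3 interactions under every alternative. DESeq2 called 1 member at 24 h against 3 h with vehicle, 1 at 3 h and 1 at 24 h against unstimulated with propyzamide (0 in edgeR), and 5 at 24 h against 3 h with propyzamide (2 in edgeR). A fit of only the groups compared called 1 in the vehicle step and 1 in the propyzamide step. Named protein-coding genes alone, and the libraries without the deepest and the shallowest, each gave 1 in the propyzamide step, and leaving out 1 library gave 1 to 4. Tubb5 kept its call there in all 33 alternatives, at log2 fold changes of 2.24 to 3.14. Of these, 24 left out 1 library, most often a library outside the 2 groups compared, so the alternatives are not independent checks. Tuba1b kept its call in 27 of 32, and lost it with named protein-coding genes alone (1.49), with only the groups compared (2.44), without the deepest and the shallowest library (1.53), and without replicate 4 of propyzamide 3 h (1.88, adjusted p = 0.0618) or of propyzamide 24 h (1.80, adjusted p = 0.0534). In that step Tubg1 was at -0.02 with named protein-coding genes alone, and Tuba1c at -0.27 without the deepest and the shallowest library.

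Leaving out 1 library, the treatment difference ran from -0.18 to 0.47 for Tubb5, -2.03 to 0.48 for Tuba1a, -0.42 to 0.77 for Tuba1c and -0.30 to 0.44 for Tubg1 in unstimulated mice. At 3 h it ran from -0.57 to 0.23 for Tuba1b and -0.72 to 0.26 for Stmn1. At 24 h it ran from -0.39 to 0.88 for Tuba1c, -0.30 to 0.38 for Tubg1, -0.23 to 0.43 for Stmn1 and 0.58 to 1.67 for Tubb4b. In the mean of the stages it ran from -0.023 to 0.21 for Tubb5, -0.79 to 0.03 for Tuba1a and -0.32 to 0.003 for Tubg1. Other turned signs in unstimulated mice were Tubb5 without a filter (-0.007) and, with limma-trend on TPM, Tuba1c (-0.42) and Tubg1 (-0.20). Without the deepest and the shallowest library Tuba1b (0.17) and Stmn1 (0.027) turned at 3 h, and Tuba1a (-0.009), Tuba1c (-0.41) and Tubg1 (0.18) at 24 h. Also at 24 h, Tuba1c turned with named protein-coding genes alone (-0.026), Stmn1 with a length offset (-0.06), and Tubg1 with relative log expression (0.22), no filter (0.13), DESeq2 (0.19) and limma-trend (0.75). In the mean of the stages Tuba1a turned with limma-trend (0.11) and over the unstimulated and 24 h stages alone (0.13), and Tubg1 likewise (0.12 and 0.12). The cause of these changes was not tested. Calls over all genes in the propyzamide step ranged from 61 without the deepest and the shallowest library to 1044 with DESeq2. Depth was low, at a median of 35.7 counts for Tubb5 and 5 for Stmn1 in 23 libraries, and the fit's biological coefficient of variation was 46.4%; the part of each in the missing calls was not tested. No paired analysis was possible because the replicate numbers only follow record order.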
